A study of Mus musculus with 15 samples.

Results

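Glycolysis turns glucose into pyruvate in the cytosol, and 10 genes that encode its middle enzymes are described here, chosen by name from the gene tables of 15 RNA-sequencing libraries of mouse islet cells. They are Gpi1, Pfkl, Pfkm, Pfkp, Aldoa, Tpi1, Pgk1, Pgam1, Eno1 and Eno2, 10 of 22924 genes with a usable estimate in every library. All 10 had a usable estimate in all 15 libraries and passed the filter on low values. Each step covered is represented by 1 gene except for phosphofructokinase, with the liver, muscle and platelet subunits Pfkl, Pfkm and Pfkp, and enolase, with Eno1 and Eno2. The step of Gapdh, between Tpi1 and Pgk1, is not among the members.

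The cells came from islets of adult mice of a mixed 129J and C57BL/6 background, and cells that had undergone cre recombination carried a red fluorescent protein (RFP). They were sorted for RFP and for aldefluor, a fluorescent substrate that stays in cells with aldehyde dehydrogenase activity, into ALDH- and ALDH+ cells. The control mice are labelled triple heterozygous for Foxo1, Foxo3 and Foxo4, transcription factors that act downstream of insulin, and the paper's text calls such cells wild-type. The Foxo knockout mice are labelled as lacking all 3 genes, which were floxed and deleted through cre. Control mice gave 3 ALDH- and 2 ALDH+ libraries, and knockout mice gave 5 of either sort. The cre driver was RIP-Cre, active under an insulin promoter, in 9 libraries and Pdx-Cre, active from pancreatic precursors on so that other pancreatic lineages can carry RFP, in 6. The study's methods describe the sorted cells for Rip-cre mice, so the driver is given here as labelled. Libraries are named by group and replicate number. Control ALDH- replicate 3, control ALDH+ replicate 2 and knockout replicates 4 and 5 of both sorts were Pdx-Cre. Islets of several animals were combined, and the labels do not say which libraries came from separate animals, so p-values measure the spread between libraries, which may be technical.

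Beta cells use glycolysis to sense glucose: the rate of pyruvate formation sets ATP production and through it insulin release. They are known to keep hexokinases of high affinity and lactate dehydrogenase A low, so that carbon from glucose is passed on to mitochondria. Several glycolytic genes are textbook targets of hypoxia-inducible factor, which binds short DNA motifs whose core reads ACGTG or, less often, GCGTG.

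Foxo1 was 12.04 to 20.1 FPKM (fragments per kilobase of transcript per unit of sequencing depth) in the 5 control libraries and 0.0925 to 4.24 FPKM in the 10 knockout libraries. The Foxo3 ranges overlapped, at 12.7 to 23.0 and 9.78 to 30.6 FPKM, and Foxo4 was at most 1.34 FPKM. Aldh1a3 was 0.490 to 4.09 FPKM in the 8 ALDH- libraries and 22.1 to 76.9 FPKM in the 7 ALDH+ libraries. Fragments behind the values, worked out from the deposited confidence intervals, summed to 7490987 to 10057002 per library. Rows without a usable estimate in a library, such as Ins1 in all 15 and Ins2 in 3, count as 0 in these sums. Of beta cell markers, Ins1 had no usable estimate and Slc2a2 was present in all 15 libraries. Red blood (3 of 5 markers usable), stromal (5 of 5) and endothelial (5 of 5) marker sums were at most 8.15, 1.14 and 4.01 FPKM.

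The upstream sequences of 3 members that rose in Pdx-Cre libraries, and of Pfkm, which did not, are shown because the genes moved apart. They are the 250 bases before the start site, on the gene's strand, from RefSeq on GRCm38.p6, a later build than the mm9 of the deposited tables. Other windows of Pfkm, some of which also hold a core, are not shown, nor are rising members without a core. Capitals mark the core ACGTG, its variant GCGTG and the longer element CACGTG, on either strand, and each of the last also holds the core.
Pgk1, chrX:106186850-106187099, plus strand: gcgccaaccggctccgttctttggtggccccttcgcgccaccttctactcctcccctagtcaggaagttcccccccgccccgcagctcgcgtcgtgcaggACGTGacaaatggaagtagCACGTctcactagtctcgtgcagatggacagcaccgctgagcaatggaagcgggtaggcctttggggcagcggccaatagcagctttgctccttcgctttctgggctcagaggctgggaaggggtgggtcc
Pgam1, chr19:41911621-41911870, plus strand: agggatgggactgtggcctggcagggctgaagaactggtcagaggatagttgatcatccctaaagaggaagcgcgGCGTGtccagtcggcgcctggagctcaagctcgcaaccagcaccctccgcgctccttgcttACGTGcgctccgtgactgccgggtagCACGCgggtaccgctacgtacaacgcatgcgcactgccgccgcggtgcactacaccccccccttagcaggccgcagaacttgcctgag
Pfkp, chr13:6648772-6649021, minus strand: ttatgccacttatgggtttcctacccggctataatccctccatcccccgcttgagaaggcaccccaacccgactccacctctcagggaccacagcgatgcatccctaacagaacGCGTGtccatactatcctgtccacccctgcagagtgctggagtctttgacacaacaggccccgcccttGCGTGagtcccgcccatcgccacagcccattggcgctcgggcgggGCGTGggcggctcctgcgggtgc
Pfkm, chr15:98092339-98092588, plus strand: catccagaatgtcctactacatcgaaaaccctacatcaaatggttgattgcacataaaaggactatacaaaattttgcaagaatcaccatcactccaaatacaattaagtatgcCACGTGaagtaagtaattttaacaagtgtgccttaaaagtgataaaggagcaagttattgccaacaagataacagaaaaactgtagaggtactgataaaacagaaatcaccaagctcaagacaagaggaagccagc
The 10 genes had 17 such windows. Either core was in 12 of them, from 7 genes (Aldoa, Eno1, Pfkl, Pfkm, Pfkp, Pgam1 and Pgk1), and in 38.6% of 32851 windows of all genes. Windows of the same gene overlap for Aldoa, Eno1 and Pfkm, so some matches are counted repeatedly. The share of all genes with either core was not worked out, so the count of genes has no comparison here. No window of Gpi1, Tpi1 or Eno2 held either core. CACGTG was in 1 window, that of Pfkm shown here, against 6.02% of all windows. GTAAACA, a core bound by Foxo proteins, was in 0 of 17 windows against 3.17% of all. These matches describe letters and are not shown to be sites.

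In the deposited tables, on build mm9, Gpi1 spans chr7:34986345-35015324 and Aldoa chr7:133938747-133943961. Tpi1 (chr6:124760609-124764314) and Eno2 (chr6:124710072-124719527) are on the same chromosome. Pfkl is at chr10:77449693-77472541, Pfkm at chr15:97923019-97962878 and Pfkp at chr13:6579119-6647970. Pgk1 is at chrX:103382462-103399038, Pgam1 at chr19:41986360-41993155 and Eno1 at chr4:149611305-149622982. Values are for whole genes, summed over their annotated transcripts.

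The members ranked in nearly the same order of level under both cre drivers. FPKM is scaled to transcript length, so genes can be set side by side. Median FPKM in RIP-Cre libraries was highest for Aldoa (aldolase, which splits fructose bisphosphate) at 312.0, then Pgam1 (phosphoglycerate mutase) at 128.9 and Pgk1 (phosphoglycerate kinase, the first ATP-forming step) at 67.0. Each of these exceeded the next gene in 9 of 9 RIP-Cre libraries and in 6 of 6 Pdx-Cre libraries. Tpi1 (triose phosphate isomerase) had a median of 41.6 FPKM, Gpi1 (glucose phosphate isomerase) 30.1 FPKM and Eno2 21.8 FPKM. Tpi1 exceeded Gpi1 in 7 of 9 RIP-Cre libraries, so these neighbours were not fully separated. Pfkm, Pfkp and Pfkl were lowest apart from Eno1, at medians of 8.38, 7.49 and 5.02 FPKM, and Pfkm exceeded Pfkp in only 5 of 9. In Pdx-Cre libraries Pfkp and Pfkl passed Pfkm, which came last with a median of 7.33 FPKM. Eno1 is placed here by its row alone, and its level is uncertain. Summed with the near-identical copy Gm5506, it had a median of 95.5 FPKM in RIP-Cre and 398.7 FPKM in Pdx-Cre libraries.

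The clearest difference among the members was between cre drivers. In limma fits of log2(rescaled FPKM + 1) with the 4 groups and the cre driver, 9 of 10 members were higher in Pdx-Cre than in RIP-Cre libraries at a Benjamini-Hochberg adjusted p under 0.05, and 0 were lower. Over all 11254 genes tested, 9.84% passed, with 5.63% higher and 4.2% lower. The median log2 fold change was 1.71 over the members and -0.011 over all genes. The exception was Pfkm. For 8 members every Pdx-Cre library lay above every RIP-Cre library, which held for 1.02% of all genes. The labels give no date or run, so the cre driver and any batch that goes with it cannot be told apart.

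**Figure D1:**
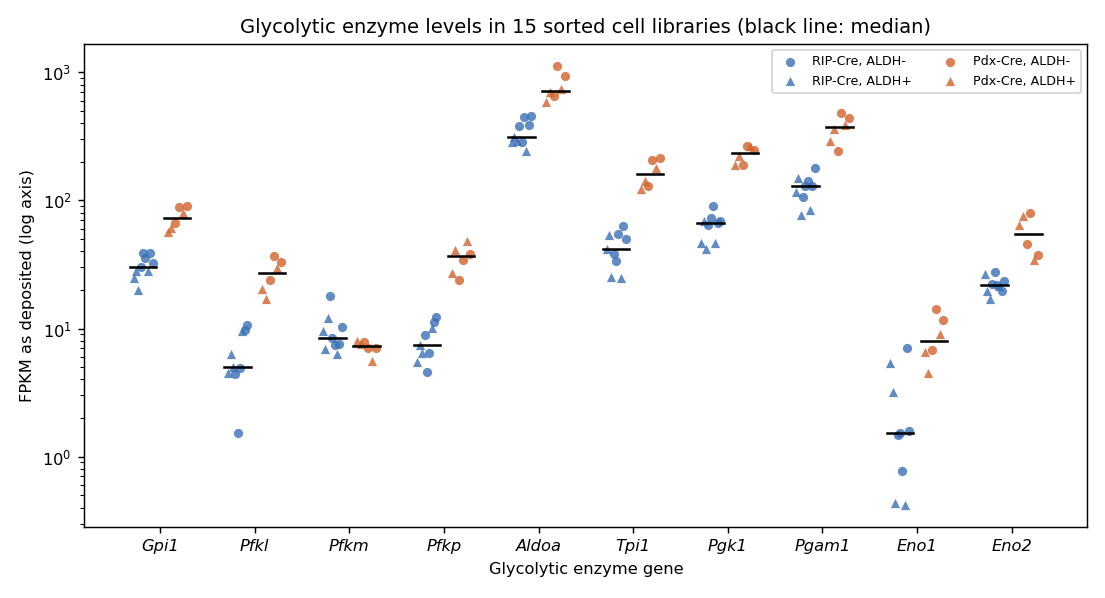
FPKM of each of the 10 genes (log axis) in 9 RIP-Cre libraries (blue) and 6 Pdx-Cre libraries (orange), with circles for ALDH-, triangles for ALDH+ and a black line at each median. Orange points sit above all blue points for Gpi1, Pfkl, Pfkp, Aldoa, Tpi1, Pgk1, Pgam1 and Eno2, and overlap them for Pfkm and Eno1.

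The upper steps differed among themselves. Gpi1, which converts glucose phosphate to fructose phosphate, ranged from 19.8 to 39.1 FPKM with a median of 30.1 in RIP-Cre libraries and from 56.9 to 90.4 with a median of 72.9 in Pdx-Cre libraries. The lowest Pdx-Cre library was above the highest RIP-Cre library, and the log2 fold change was 1.30 (SE 0.126, adjusted p = 1.59e-05). Pfkl, the liver subunit of the enzyme that commits sugar to glycolysis, was 1.52 to 10.6 FPKM in RIP-Cre libraries (median 5.02) and 16.9 to 36.5 in Pdx-Cre libraries (median 27.0). Its log2 fold change was 2.07 (SE 0.233, adjusted p = 6.86e-05), a fold of 4.19.

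Pfkp, the platelet subunit, was 4.59 to 12.3 FPKM in RIP-Cre libraries and 23.998 to 48.2 in Pdx-Cre libraries. It was the 6th of all tested genes by p, with a log2 fold change of 2.06 (SE 0.164, adjusted p = 1.99e-06). Pfkm, the muscle subunit, was 6.34 to 17.9 FPKM in RIP-Cre libraries (median 8.38) and 5.54 to 7.98 in Pdx-Cre libraries (median 7.33). These ranges overlapped, and the log2 fold change was -0.26 with a 95% interval from -0.67 to 0.15 (adjusted p = 0.432), an interval that lies below the values of the other 9 members.

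The lower steps rose together. Aldoa was 244.0 to 458.1 FPKM in RIP-Cre libraries and 591.0 to 1122 in Pdx-Cre libraries, with medians of 312.0 and 720.4 and a log2 fold change of 1.27 (SE 0.144, adjusted p = 6.86e-05). Tpi1 was 24.7 to 62.9 FPKM in RIP-Cre libraries and 122.0 to 214.6 in Pdx-Cre libraries, with a log2 fold change of 2.05 (SE 0.188, adjusted p = 9.58e-06). Pgk1 was 41.9 to 90.6 FPKM in RIP-Cre libraries and 189.1 to 265.3 in Pdx-Cre libraries, with a log2 fold change of 1.93 (SE 0.152, adjusted p = 1.99e-06), the 5th of all tested genes. None of these ranges overlapped. Pgam1 was 76.6 to 179.5 FPKM against 242.3 to 481.5 FPKM, with a log2 fold change of 1.64 (SE 0.184, adjusted p = 6.86e-05).

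Of the enolases, Eno2, the neuronal form, was 17.0 to 27.5 FPKM in RIP-Cre libraries and 34.4 to 79.6 in Pdx-Cre libraries, without overlap (log2 fold change 1.30, SE 0.174, adjusted p = 3.14e-04). Eno1, the common form, was 0.420 to 7.02 FPKM in RIP-Cre libraries and 4.51 to 14.1 in Pdx-Cre libraries, with overlap and a log2 fold change of 1.79 (SE 0.371, adjusted p = 0.00722). The Eno1 level is uncertain: its row held 3.25 to 121 fragments, while 2 rows of the near-identical copy Gm5506, of which 1 lies inside the Eno1 locus and had low-data status, held 77.4 to 122.9 FPKM together in RIP-Cre and 227.2 to 507.9 FPKM in Pdx-Cre libraries. Summed over Eno1 and Gm5506, a choice made after seeing the data, the log2 fold change was 1.95 (SE 0.163, adjusted p = 2.93e-06).

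The difference between cre drivers was present in each subset of libraries, fitted after seeing the data. Adjusted over all genes, 7 members passed in control libraries alone, where 338 of all genes did, and 8 in knockout libraries alone, where 256 did. In ALDH- libraries alone 9 members passed beside 128 of all genes, and in ALDH+ libraries alone 8 beside 74. Those lost were Eno1 in control (log2 fold change 2.14, adjusted p = 0.0797), knockout (1.61, adjusted p = 0.078) and ALDH+ libraries (1.501, adjusted p = 0.256), and Eno2 in control libraries (0.85, adjusted p = 0.0583). Leaving out any 1 library kept the count at 9, with a median of 1.56 to 1.82 over the members. In the limma interaction of cre driver with ALDH, 0 members and 0 of all genes passed, with 518 genes at an unadjusted p under 0.05.

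Some markers of other cells moved with the cre driver, where 5.63% of all genes tested passed as higher in Pdx-Cre libraries and 4.2% as lower. In limma 3 of 3 tested alpha cell markers passed as higher in Pdx-Cre libraries, 2 of 3 delta, 1 of 2 PP, 2 of 8 acinar, 1 of 3 duct and 0 of 1 endothelial cell markers, and the 1 tested macrophage and leukocyte marker, Cd68, a lysosomal protein. The summed alpha cell markers (5 of 5 usable) were 157 to 1019 FPKM in RIP-Cre and 277 to 35850 FPKM in Pdx-Cre libraries. Delta markers (3 of 3) were 436 to 1331 against 770 to 14029 FPKM, PP markers (2 of 2) 371 to 2175 against 318 to 18184 FPKM, acinar markers (8 of 8) 0.246 to 4.13 against 3.05 to 1424 FPKM, duct markers (5 of 5) 211 to 456 against 246 to 821 FPKM, and macrophage and leukocyte markers (5 of 5) 20.004 to 37.9 against 34.8 to 148 FPKM, nearly all of it Cd68. In the 6 Pdx-Cre libraries the macrophage markers Emr1 and Lyz2 were at 0, Csf1r was at most 0.368 FPKM and Ptprc at most 0.0214 FPKM, and Emr1 was at 0 in all 15 libraries. Of 8 tested beta cell markers, 6 were lower in Pdx-Cre libraries, among them Slc2a2, the islet glucose transporter. In bulk libraries fewer cells of a type and less RNA per cell cannot be told apart.

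In 1 Pdx-Cre library, Foxo knockout ALDH+ replicate 4, no other-cell marker sum of 9 was above the RIP-Cre range. Its alpha sum was 277, delta 770, PP 318 and acinar 3.05 FPKM. In that library 8 members were above the highest RIP-Cre library, with Aldoa at 591.0, Pgk1 at 190.2, Tpi1 at 122.0, Pfkl at 20.5 and Eno2 at 64.1 FPKM. This is the measurement of 1 library, and the part of other cells in the difference between cre drivers was not tested.

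**Figure D2:**
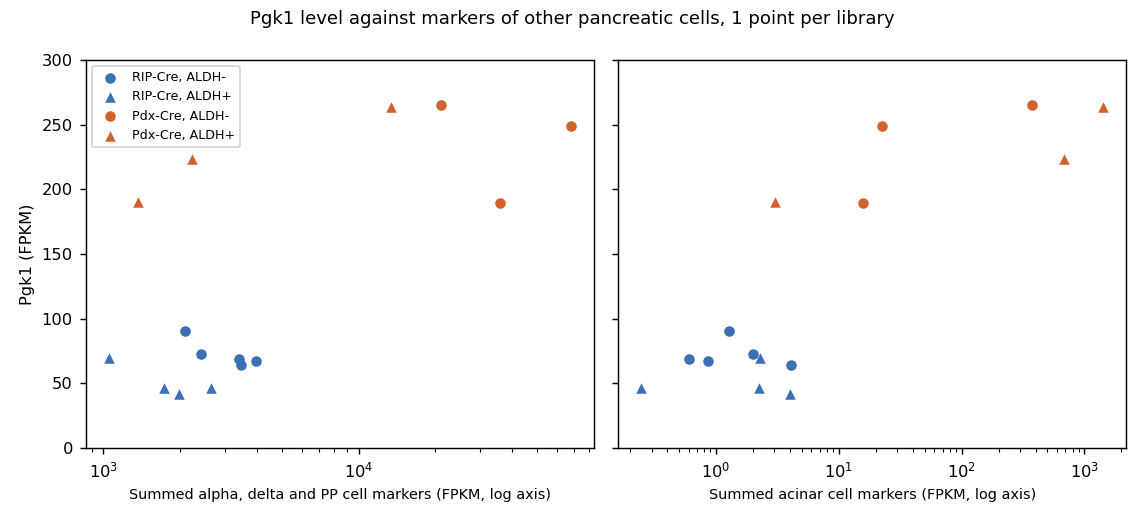
Pgk1 FPKM (linear axis) against summed markers (log axes) of alpha, delta and PP cells (left) and acinar cells (right), 1 point per library, blue for RIP-Cre, orange for Pdx-Cre, circles for ALDH- and triangles for ALDH+. The Pdx-Cre library lowest in both marker sums, at 3.05 FPKM of acinar markers, had a Pgk1 level of 190.2 FPKM, above the highest RIP-Cre library at 90.6.

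The phosphofructokinase subunits shifted in proportion. Pfkm made up a median of 39.3% of their summed FPKM in RIP-Cre libraries (24.4% to 57.8%) and 10.3% in Pdx-Cre libraries (6.62% to 14.4%), so the ranges did not overlap. The Pfkp median was 34.4% and 48.9% and the Pfkl median 26.3% and 39.4%. The median sum rose from 23.4 to 71.8 FPKM. Within each library the log2 ratio of Pfkl to Pfkm averaged -0.73 ± 1.06 (SD, n = 9) in RIP-Cre and 1.86 ± 0.557 (SD, n = 6) in Pdx-Cre libraries. The difference within strata of genotype and ALDH was 2.57, and that of Pfkp to Pfkm was 2.49. Both had p = 0.00167 in an exact two-sided permutation test, the smallest that 600 arrangements can give, and 0.0075 after adjustment over the 9 ratio tests. The ratio of Eno2 to Eno1 differed by -1.18 (exact permutation test, adjusted p = 0.249). It uses the Eno1 row alone, which held 0.457% to 6.54% of the Eno1 and Gm5506 FPKM in RIP-Cre libraries. In Pdx-Cre libraries that share was 1.21% to 2.79%. Of the FPKM of Eno2, Eno1 and Gm5506 together, Eno2 held a median of 17.5% in RIP-Cre and 13.4% in Pdx-Cre libraries.

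**Figure D3:**
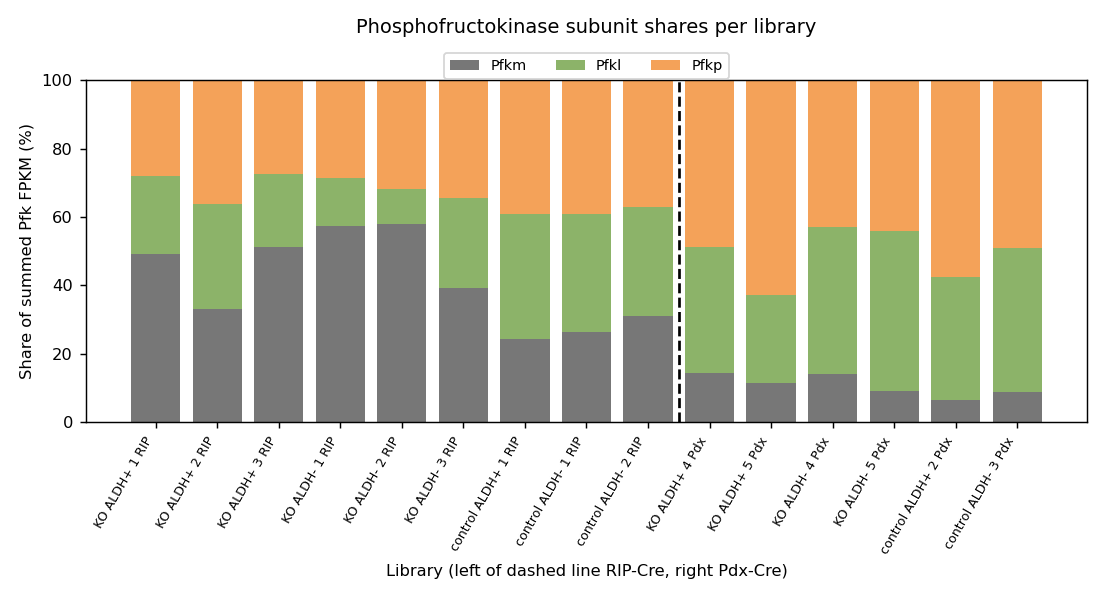
Share of the summed phosphofructokinase FPKM held by Pfkm (grey), Pfkl (green) and Pfkp (orange) in each library, with RIP-Cre left and Pdx-Cre right of the dashed line. Pfkm takes 24.4% to 57.8% on the left and 6.62% to 14.4% on the right.

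The cells had been sorted by ALDH activity, and the next comparison asks how ALDH+ cells differ from ALDH- cells. No member changed past the threshold in the fits made here. The paper, using the count-based test DESeq, listed Aldoa as lower in ALDH+ than in ALDH- cells of wild-type mice. That comparison covered fewer libraries than the fits made here. Its listed means weight ALDH- to ALDH+ as 2 to 1. The RIP-Cre control libraries here number 2 ALDH- and 1 ALDH+, so the paper's Aldoa result may rest on 1 ALDH+ library. Both the libraries and the test differ, and which of them accounts for the different outcome was not tested. Averaged over genotypes, 9 of 10 members had lower fitted values in ALDH+ cells, with a median log2 fold change of -0.33 against -0.017 over all genes (-0.448 to -0.192 when single libraries were left out, nearest 0 without control ALDH+ replicate 1), but 0 of 10 passed in limma where 5.91% of all genes did, with 3 members and 2333 genes at an unadjusted p under 0.05. Those 3 were Aldoa, Tpi1 and Gpi1. Without control ALDH+ replicate 1, 3 of all genes passed in place of 665. No member's ALDH+ libraries all lay above or all below its ALDH- libraries, against 0.427% and 0.275% of all genes. Both sorts held both cre drivers, so for the 8 members split fully by driver this outcome was fixed in advance. For those 8 it says nothing about ALDH.

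Aldoa was 285.9 to 1122 FPKM with a median of 451.9 in 8 ALDH- libraries and 244.0 to 734.8 with a median of 312.0 in 7 ALDH+ libraries. Its ranges, which pool both cre drivers, overlapped, and the log2 fold change was -0.47 with a 95% interval from -0.79 to -0.15 (adjusted p = 0.0812). Gpi1 was 30.1 to 90.4 FPKM (median 39.0) against 19.8 to 79.2 FPKM (median 28.3), with a log2 fold change of -0.36 from -0.64 to -0.080 (adjusted p = 0.122). Within RIP-Cre libraries the 4 ALDH+ values of Gpi1, at 19.8 to 28.3 FPKM, lay below the 5 ALDH- values at 30.1 to 39.1. It was the only member to do so, against 3.07% of all genes. Tpi1 was 33.8 to 214.6 FPKM (median 59.0) against 24.7 to 180.2 FPKM (median 53.5), with a log2 fold change of -0.46 from -0.88 to -0.037 (adjusted p = 0.198). Without control ALDH+ replicate 1 it was -0.204.

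The remaining intervals for ALDH+ against ALDH- all held 0. Pgk1 was at -0.31 (-0.65 to 0.030), Pgam1 at -0.35 (-0.76 to 0.066), Pfkp at 0.029 (-0.34 to 0.39), Pfkl at -0.069 (-0.59 to 0.45) and Eno2 at -0.097 (-0.49 to 0.29) on the log2 scale. Without Foxo knockout ALDH- replicate 4, Gpi1 (-0.42, adjusted p = 0.0486) and Aldoa (-0.55, adjusted p = 0.0252) passed. Within genotypes, 0 members passed in control libraries, where 1.08% of genes did (121 genes, but 0 or 1 without any 1 of 4 of the 5 control libraries), or in knockout libraries, where 0.0178% did. The log2 fold changes of Aldoa and Tpi1 were -0.61 (adjusted p = 0.266) and -0.74 (adjusted p = 0.305) in control cells, and that of Gpi1 was -0.45 (adjusted p = 0.233) in knockout cells. With only 2 control ALDH+ libraries, the control values rested on single libraries: Tpi1 was -0.239 without control ALDH+ replicate 1 and -1.21 without replicate 2, and Aldoa was -0.382 and -0.822.

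Other quantities moved with the ALDH sort. The nuclear-retained RNAs Malat1, Neat1, Meg3 and Kcnq1ot1 summed to 272 to 1610 FPKM in ALDH- and 2045 to 4903 FPKM in ALDH+ libraries, and 4 of 4 rose past the threshold. The PP cell markers, 2 of 2 lower, summed to 539 to 18184 FPKM in ALDH- and 318 to 4433 FPKM in ALDH+ libraries. Their part in the member values was not tested.

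**Figure D4:**
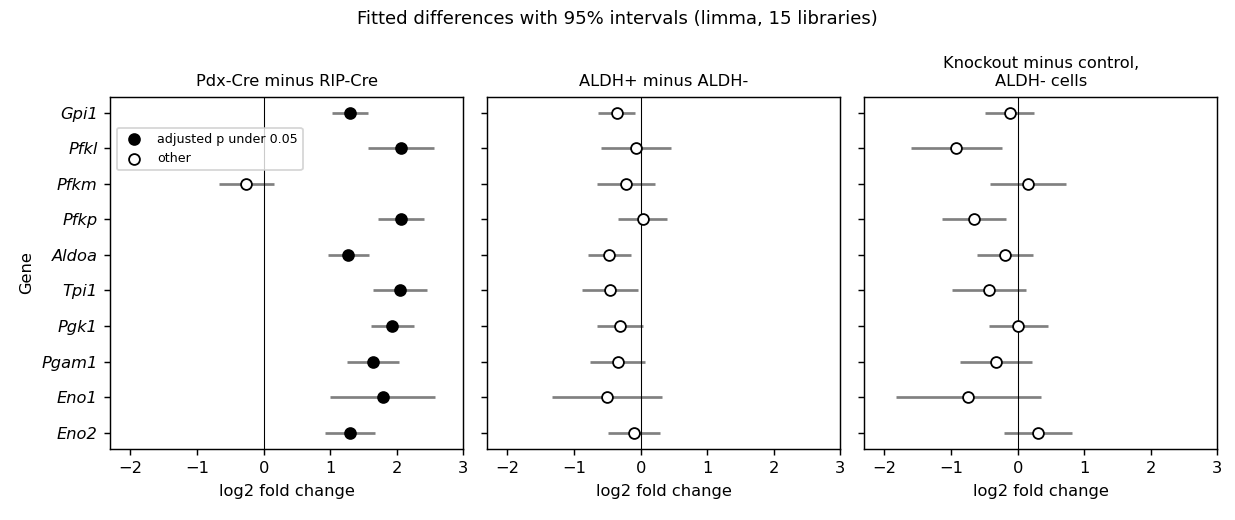
Fitted log2 fold changes (points) with 95% intervals (lines) for Pdx-Cre minus RIP-Cre libraries, ALDH+ minus ALDH- averaged over genotypes, and Foxo knockout minus control in ALDH- cells, with filled points for an adjusted p under 0.05. In the left panel 9 of 10 points are filled, from 1.27 for Aldoa to 2.07 for Pfkl, and in the other panels 0 are.

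Foxo knockout and control cells were compared within each sorted population. In ALDH- cells 0 members passed in limma where 0.0178% of genes did, and in ALDH+ cells 0 members passed where 0% of genes did, with 652 and 746 genes at an unadjusted p under 0.05. The genotype by ALDH interaction called 0 members and 0 genes (477 at an unadjusted p under 0.05). The members farthest from 0 at an unadjusted p under 0.05 were Pfkl and Pfkp.

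In RIP-Cre libraries Pfkl was 9.8 and 10.6 FPKM in control ALDH- cells, 9.5 in control ALDH+ cells, 4.4, 1.5 and 4.9 in knockout ALDH- cells and 4.5, 6.4 and 5.0 in knockout ALDH+ cells. Pfkp was 11.2 and 12.3, then 10.2, then 9.0, 4.6 and 6.5, and then 5.5, 7.5 and 6.4 FPKM in the same order. All 6 knockout libraries were below all 3 control libraries for these 2 members, as for 1.56% of all genes. In Pdx-Cre libraries Pfkl was 32.9 and 29.9 FPKM in control and 24.1, 36.5, 20.5 and 16.9 in knockout cells, and the groups overlapped for both members. Eno2 in Pdx-Cre libraries was 37.5 and 34.4 FPKM in control and 45.5, 79.6, 64.1 and 76.0 in knockout cells, the only member there whose knockout libraries all lay above control, as did 6.51% of all genes. Over all libraries the log2 fold change of Pfkl was -0.92 (SE 0.322, adjusted p = 0.785) in ALDH- and -0.63 (adjusted p = 0.846) in ALDH+ cells. That of Pfkp was -0.66 (SE 0.226, adjusted p = 0.770) and -0.54 (adjusted p = 0.766).

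Set against Pfkm within the same library, both were lower in knockouts. Pfkm itself had log2 fold changes of 0.16 in ALDH- and 0.49 in ALDH+ cells (limma, adjusted p = 0.979 and 0.854). The ratios thus hold both movements. The highest Pfkm value, 17.9 FPKM, was in a knockout library, Foxo knockout ALDH- replicate 1. The log2 ratio of Pfkl to Pfkm averaged 1.13 ± 1.11 (SD, n = 5) in control and -0.11 ± 1.65 (SD, n = 10) in knockout libraries, a difference of -1.31 within strata of ALDH and cre driver (exact permutation test, p = 0.00833, adjusted p = 0.0188). For Pfkp to Pfkm the difference was -0.99 (exact permutation test, p = 0.00278, the smallest that 360 arrangements can give, adjusted p = 0.00833). Without control ALDH+ replicate 1, which leaves fewer arrangements, the adjusted p was 0.08 for Pfkl and 0.05 for Pfkp. Without control ALDH+ replicate 2 it was 0.075 for Pfkl. Permuted within ALDH alone, disregarding the cre driver, it was 0.373 and 0.386.

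Other genes of the pathway were counted in 6 lists of 77 genes, of which 54 passed the filter. The lists were chosen with earlier results of these data known. Between cre drivers 17 rose in Pdx-Cre libraries and 3 fell, where 5.63% of all genes tested rose and 4.2% fell. Of 7 tested genes for other isoforms and steps, 4 rose, namely Aldoc (log2 fold change 1.58), Gapdh (1.33), Adpgk (1.14) and Pkm (1.01), and Gapdh, the step between Tpi1 and Pgk1, was 263.8 to 406.9 FPKM in RIP-Cre and 545.6 to 1206 FPKM in Pdx-Cre libraries. Of 3 tested genes of glucose entry, the transporter Slc2a1 rose (2.18, adjusted p = 1.17e-05) from a median of 16.2 to 81.7 FPKM and Slc2a2 fell (-2.88, adjusted p = 3.30e-06) from 128 to 19.4 FPKM.

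Around phosphofructokinase, 2 of 10 tested genes rose and 2 fell. Pfkfb3, whose product makes a sugar bisphosphate that activates the enzyme, was 0.375 to 1.86 FPKM in RIP-Cre and 10.2 to 17.5 FPKM in Pdx-Cre libraries (log2 fold change 2.79, adjusted p = 1.97e-06). Fbp2, an opposing phosphatase, rose by 2.33, while Pfkfb2 was at -0.65 and Tigar at -0.78. The most abundant of that list, G6pc2 and G6pc3, were at -0.42 and 0.50 and did not pass.

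At the end of the pathway, Ldha, which makes lactate from pyruvate, was 0.0651 to 2.11 FPKM in RIP-Cre libraries and 35.0 to 123.0 FPKM in Pdx-Cre libraries. Its log2 fold change was 5.43 (SE 0.346, adjusted p = 4.27e-07). Pdk1, a kinase that restrains pyruvate dehydrogenase, rose by 1.59, and these were 2 of 14 tested genes of pyruvate and lactate, with Dld at -0.0079 and Pdhb at 0.068. Of 10 tested genes of the shuttles that return NADH electrons to mitochondria, 0 passed, and Mdh2 and Mdh1 were at 0.30 and 0.28 (adjusted p = 0.158 and 0.183, limma).

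Of 10 tested genes of a hypoxia-inducible list, 8 rose: Bnip3 (2.10), P4ha1 (1.86), P4ha2 (1.70), Ankrd37 (1.52), Ero1l (1.33), Hif1a (0.82), Egln1 (0.82) and Kdm3a (0.67). Vegfa and Ddit4, at -0.22 and -0.032, did not pass. Over all genes tested 5.63% rose, and this list too was chosen with earlier results of these data known. The ALDH comparison averaged over genotypes called 2 of the 54 genes, where 5.91% of all genes passed. They were Vegfa, which rose by 0.62 (adjusted p = 0.00835), and Ddit4, at -0.86 (adjusted p = 0.0353). In every other comparison 0 of the 54 passed in limma.

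**Figure D5:**
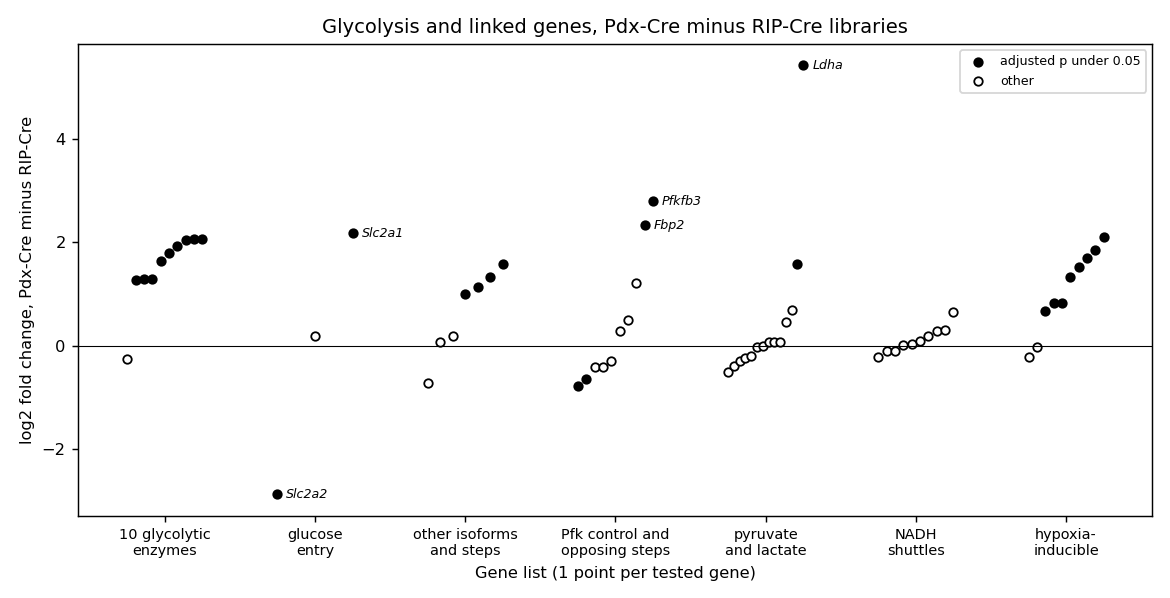
Log2 fold changes of Pdx-Cre minus RIP-Cre libraries for the 10 enzymes and the tested genes of 6 lists, 1 point per gene, filled at an adjusted p under 0.05. Filled points lie above 0 for 9 of 10 enzymes and 8 of 10 hypoxia-inducible genes, Ldha is at 5.43, and the NADH shuttle genes have 0 filled points.

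The genes whose pattern over the 15 libraries was most like each member, by the root mean square difference of centred log2 values, were often other members. The nearest gene of 11253 was Pgk1 for Tpi1 (0.266) and Pgam1 (0.262), Aldoa for Gpi1 (0.256) and Pfkp for Pfkl (0.390). Bnip3, a mitochondrial protein, was nearest to Pgk1 (0.256) and to Pfkp (0.362), Gde1 to Aldoa (0.211), Ankrd37 to Eno1 (0.507) and Vopp1 to Eno2 (0.30001). Pfkm was nearest to Coro2b (0.243), and its nearest member, Aldoa, ranked 10049. The libraries share the cre driver difference, so these values describe its pattern among other things.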

How the data were processed

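Poly-A RNA of sorted RFP+ cells was prepared with a TruSeq kit. Per the submitters' processing notes, the authors used bcl2fastq 1.8.4, TopHat2 2.0.4 and build mm9; the quantifier's version is not given in the sources used here. The deposited tables hold FPKM per gene with confidence bounds, in the layout of Cufflinks, scaled to transcript length and library depth by the authors. Symbols listed more than once (712 of 23699 lines) and 63 lines that failed or were too deep in any library were left out. Read counts were not used here.

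FPKM values were rescaled by a trimmed mean of M-values (30% and 5% trimmed, factors 0.926 to 1.05), and log2(value + 1) was fitted with limma 3.58.1 in R 4.3.3 for genes with a mean of at least 1, with Benjamini-Hochberg adjustment over 11254 genes in each of 8 comparisons. Fold changes on this scale understate those of low genes. Subunit ratios used exact stratified permutation tests in Python 3.11.15, two-sided. Both procedures were tested on simulated data. Fragments per value were inferred from interval widths, and below 500 fragments 67.1% of them were whole to within 0.02. Correlations within groups were 0.846 to 0.958, and 0% of nonzero values were equal. Where members overlap a neighbouring gene (Pfkm with Senp1, Pfkp with Pitrm1, Tpi1 with Spsb2), strand use in counting is not given in the sources used here.

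The members and gene lists were chosen with earlier results of these data known. Named list genes were those past the threshold in any comparison, and the 2 most abundant of each list. The values of 1 listed gene are not reported here. Promoter windows came from RefSeq tables. Other scalings, pseudocounts, filters, models and subsets of libraries were tried as alternatives.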

Additional observations from a re-analysis of the deposited data

Results flagged for a closer look

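Of 40 sets of values examined (each of 10 genes in 4 sets of libraries), 2 held a library far from the others, and both were the same value. Pfkm in Foxo knockout ALDH- replicate 1 was 17.8687 FPKM, where the gap to the nearest library was 0.877 of the range within the 5 Foxo knockout ALDH- libraries and 0.509 of the range over the 9 RIP-Cre libraries. About 1 in 20 such sets is marked by chance, and these sets share libraries.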

How the results depend on the processing

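The count of members called was 0 in 7 comparisons and 9 between cre drivers under every rescaling, pseudocount, filter and model tried over all libraries, with 1 exception: leaving out single libraries gave 0 to 2 members for ALDH averaged over genotypes, 2 without Foxo knockout ALDH- replicate 4. For ALDH averaged over genotypes, the log2 fold change of Pfkl was 0.103 without a cre term and 0.229 in RIP-Cre libraries alone, that of Pfkp was -0.092 in RIP-Cre libraries alone and -0.046 with the length trend removed, and that of Eno2 was 0.011 without a cre term. Leaving out single libraries gave -0.207 to 0.066 for Pfkl, -0.033 to 0.080 for Pfkp and -0.271 to 0.060 for Eno2. The genotype ratios permuted within ALDH alone were -1.28 for Pfkl to Pfkm (adjusted p = 0.373, exact permutation) and -1.01 for Pfkp to Pfkm. Leaving out single libraries, the ratio of Eno2 to Eno1 was -0.059 to 0.816 by ALDH and 0.145 to 1.48 by genotype, Pfkl to Pfkm -1.58 to -1.14 and Pfkp to Pfkm -1.11 to -0.924 by genotype. Without control ALDH+ replicate 1, Eno2 to Eno1 by ALDH was -0.059 and by genotype 1.48, both on the Eno1 row alone, which held few fragments. The cause of these moves was not tested. Without control ALDH+ replicate 1 the count of all genes called for ALDH averaged over genotypes was 3, not 665, and without control ALDH- replicates 1, 2 and 3 it was 356, 297 and 415. It was 143 with the length trend removed, 176 without a cre term, 156 in RIP-Cre and 4 in Pdx-Cre libraries alone and 338 without a filter. For ALDH in control cells it was 121, but 0 without control ALDH- replicate 1, 2 or 3, 1 without control ALDH+ replicate 1, 9 without knockout ALDH- 1, 75, 77 and 243 without knockout ALDH+ 4, 5 and 3, 0 with the length trend removed or no cre term, 20 in RIP-Cre libraries alone, 58 without a filter and 446 with the compared groups only. Between cre drivers it was 689 to 728, not 1107, without control ALDH- 3, knockout ALDH- 5, control ALDH+ 1 or 2, or knockout ALDH+ 5.

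Replicate numbers did not pair the libraries: knockout libraries with equal numbers had residual correlations of -0.044 to 0.070, and 0 of 5 numbers correlated best with their own. With a replicate block on the number, 0 members were called for ALDH averaged over genotypes and 9 between cre drivers, and all genes called were 717 and 1044. Eno1 rests on few fragments.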
